A study of Canis lupus familiaris with 8 samples.

Results

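NR4A1, NR4A2 and NR4A3 form a small family of nuclear receptors. They were chosen by gene symbol, and 2 of the 3 symbols have a row in the 30424 genes of the expression table: NR4A1 (ENSCAFG00000007338) and NR4A2 (ENSCAFG00000009209). NR4A3 was not analysed here. The family was picked with the difference between the KDM2B hairpin and the scramble hairpin already known, so its values in that comparison are a description and carry no test. The same scramble libraries enter the other comparisons, so tests of the receptors there are not independent of that choice.

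NR4A receptors are called orphan because no classical ligand is known to switch them on. They act as transcription factors whose activity follows their amount, and their genes are immediate early genes, switched on within minutes by cAMP, calcium, growth factors or stress. NR4A1 (also Nur77) and NR4A2 (also Nurr1) bind DNA alone, as pairs, or together with a retinoid X receptor. In blood vessels of human and mouse, the family is known for its response to vascular growth factor, thrombin and inflammatory signals.

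RNA sequencing was done on 8 libraries of cultured dog cells, given as TPM, a share of transcripts corrected for gene length. Of these, 3 came from JuB2 cells labelled as carrying an shRNA that knocks down KDM2B, and 3 from JuB2 cells expressing a scramble shRNA. An shRNA is a hairpin RNA made to lower one transcript, and a scramble hairpin has no intended target. A further library came from JuB2 cells without treatment, and the last is labelled EC, normal endothelial cells with the source name CnAOEC. JuB2 is a hemangiosarcoma cell line, and all 7 JuB2 libraries rest on that line alone. No label says whether replicates are separate cultures, and the p-values cover only the spread among libraries, which may be technical. TPM keeps no depth, so the reads behind each value are unknown.

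The data went against the knockdown label, and markers for the EC label were mixed. KDM2B, the targeted histone demethylase gene, held 20.88, 19.69 and 18.25 TPM in the KDM2B shRNA-labelled libraries, against 14.01, 15.01 and 12.89 TPM in scramble. It was thus higher, by 0.46 ± 0.11 in log2(TPM + 1) (SE, limma adjusted p = 0.0101). KDM2B differed under trimmed-mean scaling by 0.29 ± 0.10 (SE, limma adjusted p = 0.0492), and over 16 alternatives the adjusted p ran from 0.00788 to 0.0492. Every direction given for these libraries is that of the label, not of a loss of KDM2B. In the library labelled EC, the endothelial markers PECAM1, VWF, TIE1 and ESAM were listed at 0. PECAM1, VWF and TIE1 were also at 0 in scramble and untreated JuB2. ENG held 37.04 TPM in the library labelled EC, ERG 21.93 TPM, EMCN 3.11 TPM and TEK 2.38 TPM, each above its level in scramble and untreated JuB2. KDR and EGFL7, at 1.24 and 1.93 TPM there, were below their level in every scramble and untreated JuB2 library. FLT1 was similar, at 13.16 TPM in the library labelled EC and 11.4 to 12.81 TPM in scramble and untreated JuB2. The library labelled EC had 7 of 14 endothelial markers at 1 TPM or more, with a summed level of 82.3 TPM. It had 11 of 12 fibroblast and smooth muscle markers at that level, with a summed level of 33564 TPM. The JuB2 libraries had 4 to 5 of the 14 endothelial markers at that level, and CDH5 and TIE1 were at 0 in every one of them. Genes listed above 0 numbered 13387 to 13452 in the KDM2B shRNA-labelled libraries and 12684 to 12773 in scramble. The 13 mitochondrially encoded genes took 11.3 to 12.6% of the TPM in the KDM2B shRNA-labelled libraries and 17.3 to 18.9% in scramble.

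NR4A1 was low in every JuB2 control and high in the KDM2B shRNA-labelled libraries and in the library labelled EC. Its level was 72.78, 85.57 and 72.19 TPM in the KDM2B shRNA-labelled libraries, against 6.04, 5.94 and 3.21 TPM in scramble. The groups did not overlap: the lowest KDM2B shRNA-labelled library stood 12.0 times above the highest scramble library. It averaged 76.8 ± 7.56 TPM in the KDM2B shRNA-labelled libraries and 5.06 ± 1.61 TPM in scramble (SD, n = 3 each), a ratio of 15.2. In log2(TPM + 1) NR4A1 differed by 3.72, which placed it 9th from the top of 11485 genes. NR4A1 stood above 82.5 to 85.2% of the genes listed above 0 in the KDM2B shRNA-labelled libraries, and above 21.3 to 29.2% of those in scramble.

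NR4A2 showed the same order at lower levels. It held 12.71, 14.86 and 11.58 TPM in the KDM2B shRNA-labelled libraries, against 2.79, 1.83 and 2.86 TPM in scramble. These groups did not overlap either, with the lowest KDM2B shRNA-labelled library 4.05 times above the highest scramble library. NR4A2 averaged 13.05 ± 1.67 TPM in the KDM2B shRNA-labelled libraries and 2.49 ± 0.576 TPM in scramble (SD, n = 3 each), a ratio of 5.23, and differed by 2.02 in log2(TPM + 1). A difference of at least that size was held by 73 genes, 0.636% of those tested. A gene was tested if 3 or more of these 6 libraries reached 1 TPM, as both receptors did in every library. Of all genes tested, 38.3% stood higher in the KDM2B shRNA-labelled libraries with no overlap between the groups and 20.9% stood lower, while 7.18% were higher by 1 or more in log2(TPM + 1). By limma 50.9% had an adjusted p under 0.05. Both receptors are among the higher genes by the way they were chosen, so nothing is read from these shares.

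Other measures moved with this difference. Summed endothelial markers stood at 74.5 to 81.9 TPM in the KDM2B shRNA-labelled libraries and at 43.7 to 50.7 TPM in scramble. ENG, a coreceptor for TGF-beta family ligands, alone held 35.05, 38.32 and 40.01 TPM in the KDM2B shRNA-labelled libraries, against 23.79, 20.3 and 21.23 TPM in scramble. Summed fibroblast and smooth muscle markers stood at 866.8 to 940.4 TPM in the KDM2B shRNA-labelled libraries and at 1656 to 1717 TPM in scramble. Not all markers followed these sums. COL1A1, COL1A2, PDGFRA, ACTA2 and TAGLN were lower in the KDM2B shRNA-labelled libraries. COL3A1 was higher, and LUM, CNN1 and MYH11 overlapped between the groups. Of the endothelial markers KDR and EGFL7 were also higher, FLT1 overlapped, and CDH5, TIE1 and EMCN stayed at 0 in both groups. ERG held 9.22, 7.42 and 0 TPM in the KDM2B shRNA-labelled libraries and was listed at 0 in every scramble library. The part of these markers in the NR4A values, and that of the mitochondrial share, was not tested. In bulk RNA, fewer cells with a transcript and less transcript per cell cannot be told apart.

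**Figure D1:**
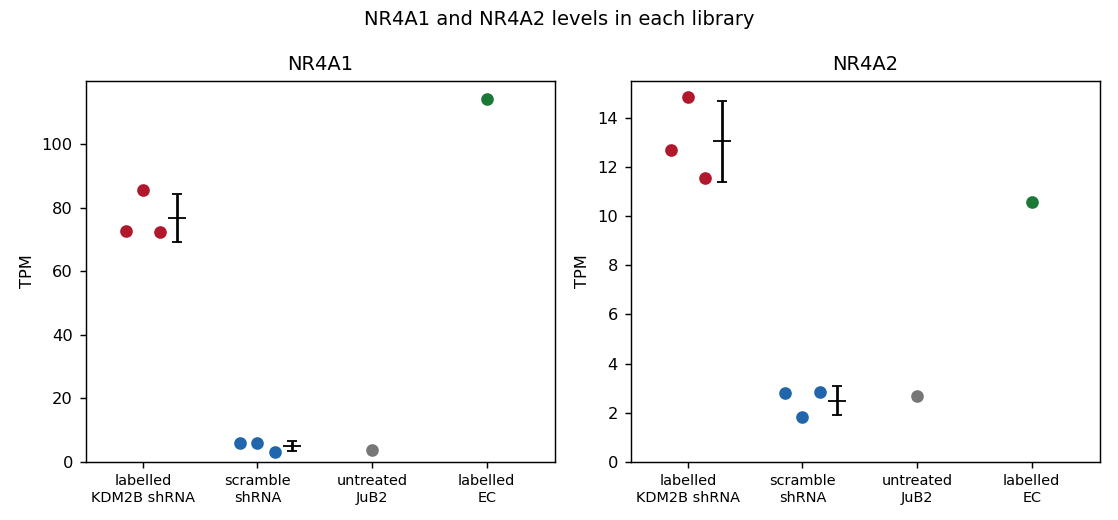
Points give the TPM of NR4A1 (left) and NR4A2 (right) in each library, and black bars the mean and SD of the groups with 3 libraries. The KDM2B shRNA-labelled libraries and the library labelled EC sit far above scramble and untreated JuB2 for both genes, and for NR4A2 the library labelled EC (10.58 TPM) sits just below the lowest KDM2B shRNA-labelled library (11.58 TPM).

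The balance between the receptors also differed. TPM is corrected for length, so their levels can be set side by side. Within the summed level of both genes, NR4A1 made up 85.1, 85.2 and 86.2% in the KDM2B shRNA-labelled libraries, against 68.4, 76.4 and 52.9% in scramble. The share varied little in the first group and widely in the second. The summed level was 89.9 ± 9.16 TPM in the KDM2B shRNA-labelled libraries and 7.56 ± 1.39 TPM in scramble (SD, n = 3 each). Among replicates, KDM2B shRNA-labelled library 2 was highest for both receptors. In scramble the genes did not follow each other: library 3 was lowest for NR4A1 and highest for NR4A2, and library 2 was lowest for NR4A2. All scramble levels were low, and NR4A2 held 2.86 TPM in library 3 beside 2.79 TPM in library 1. Little is thus read from the scramble shares and orders.

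The scramble libraries were set against the untreated line, the comparison that shows the control hairpin itself. NR4A1 averaged 5.06 TPM in scramble and held 3.65 TPM in untreated JuB2, which lies within the scramble range. Its difference was 0.34 ± 0.32 in log2(TPM + 1) (SE, limma adjusted p = 0.621). Without scramble library 1, 2 or 3 it was 0.22, 0.23 or 0.59, and the adjusted p over 15 alternatives ran from 0.161 to 0.785. NR4A2 averaged 2.49 TPM in scramble and held 2.67 TPM in untreated JuB2, also within the range, with a difference of -0.09 ± 0.24 (SE, limma adjusted p = 0.896). The sign of the NR4A2 difference turned without scramble library 2, to 0.06. This fit covers all 8 libraries and assumes that the lone untreated library varies like the replicated groups. It called 1.76% of 11774 genes (207), a count that fell to 26, 10 and 10 without scramble library 1, 2 and 3, and to 82, 51 and 68 without KDM2B shRNA-labelled library 1, 2 and 3.

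The JuB2 controls held far less of both receptors than the library labelled EC. The 3 scramble libraries and the untreated one together averaged 4.71 ± 1.49 TPM of NR4A1 (SD, n = 4), against 114.33 TPM in the library labelled EC, or 4.12% of its level. The difference was -4.37 ± 0.31 in log2(TPM + 1) (SE, limma adjusted p = 0.000131). NR4A2 averaged 2.54 ± 0.478 TPM in the same 4 libraries (SD, n = 4) and held 10.58 TPM in the library labelled EC, a difference of -1.72 ± 0.23 (SE, limma adjusted p = 0.0015). Both receptors were lower in all 4 control libraries. The low scramble values were known when the family was chosen, so this result is not independent of the choice. The fit called 62.3% of 11774 genes in this comparison, 20.0% lower and 42.3% higher in the JuB2 controls (2353 and 4981 genes, or 3401 and 3801 with trimmed-mean scaling). The library labelled EC is single and assumed to vary like the others, and its large summed level of fibroblast and smooth muscle markers moves with this difference. The part of these markers in it was not tested.

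NR4A1 was thus highest in the library labelled EC, next in the KDM2B shRNA-labelled libraries, and lowest in scramble and untreated JuB2, which overlapped. For NR4A2 the order of the upper groups was the other way round. NR4A1 in the KDM2B shRNA-labelled libraries reached 63.1 to 74.8% of the level in the library labelled EC, and NR4A2 reached 109 to 140.5% of it.

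How many genes shared this shape depended on the distance asked for. Both receptors were chosen with part of the shape known, so their own place in it is not a result. A rule written after the values were seen asked that the 3 KDM2B shRNA-labelled libraries and the library labelled EC each stand at least 1 on the log2(TPM + 1) scale above all 4 JuB2 controls. It was met by 30 genes, 0.255% of 11774, both receptors included, while 9.22% had the same order with no minimum distance. FOS and FOSB, AP-1 subunits that are immediate early genes like NR4A1, met it. So did ID3, an inhibitor of helix-loop-helix transcription factors, and CRYAB, a small heat shock protein. OAS2, which interferon induces, met it as well, as did BST2, IFI6 and DDX58. The genes named here were picked from the 30 after their values were seen. Among the other nuclear receptors, 0 of 25 met the rule, beside 0.255% of all genes, so nothing is read from that count.

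The genes closest to each receptor over the 8 libraries were found by the root mean square difference of their log2(TPM + 1) values, each gene centred on its own mean. The search covered 8701 genes with a mean of at least 5 TPM and a symbol held by a single row. Rows without a symbol were left out. Nearest to NR4A1 were OAS2, TMEM255A, GPNMB, DTX3L and CRYAB. OAS2, an interferon-induced activator of RNA decay, lay at 0.34, while the other 4 lay at 0.74 to 1.03. OAS2 held 9.83, 19.5 and 9.89 TPM in the KDM2B shRNA-labelled libraries, was listed at 0, 0.49 and 0 TPM in scramble and at 0 in untreated JuB2, and held 29.25 TPM in the library labelled EC. Nearest to NR4A2 were IL4R, SLC35A5, FOXK1, SNRNP48 and TRIM25, at 0.33 to 0.38. IL4R, an interleukin receptor subunit, held 10.34, 9.42 and 7.22 TPM in the KDM2B shRNA-labelled libraries, 1.94, 2.2 and 1.87 TPM in scramble, 3.71 TPM in untreated JuB2 and 8.5 TPM in the library labelled EC. The receptors themselves lay 1.09 apart, and the swings of NR4A1 were the larger ones. NR4A2 was 9th in nearness to NR4A1, but NR4A1 was only 4898th of 8702 in nearness to NR4A2.

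**Figure D2:**
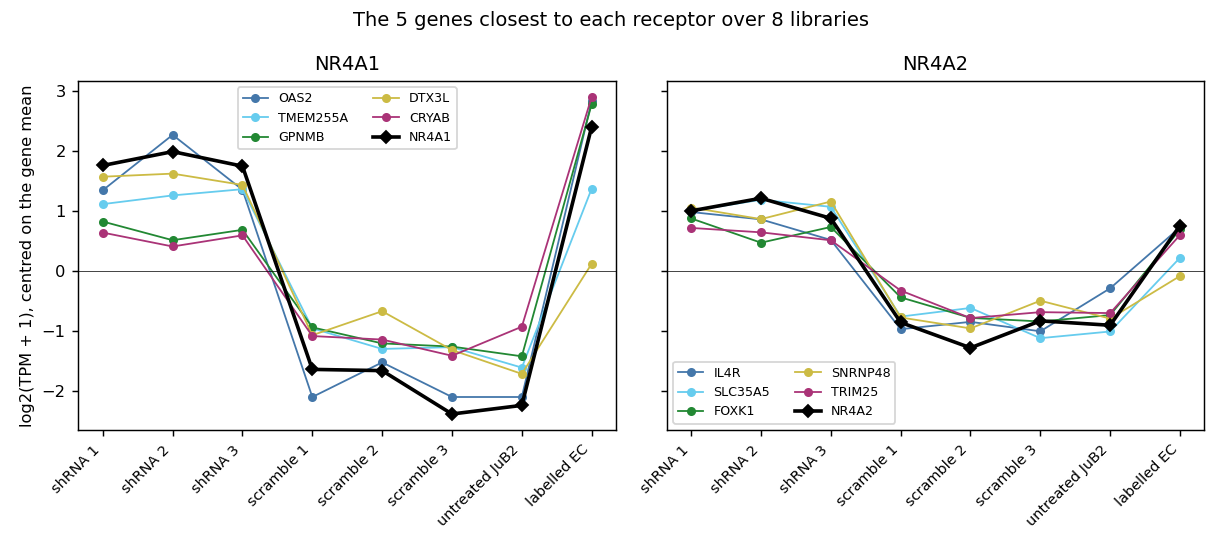
Lines give log2(TPM + 1), centred on each gene's mean over the 8 libraries, for NR4A1 (left, black) and NR4A2 (right, black) with the 5 genes closest to each. All dip in the scramble and untreated JuB2 libraries, and the swing around NR4A1 is wider than that around NR4A2.

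Other nuclear receptors gave the scale for these values. In the KDM2B shRNA-labelled libraries, NR4A1 was the third most abundant of 43 nuclear receptor genes, after NR1H2 and PPARG, and in scramble it ranked 20th. NR4A2 ranked 14th in the KDM2B shRNA-labelled libraries and 24th in scramble. In the library labelled EC, NR4A1 ranked first.

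Of 45 other nuclear receptor genes sought, 41 had a row and 25 were high enough to test. In the KDM2B shRNA-labelled libraries 10 of these 25 rose (40.0%) and 1 fell (4%), with limma and Benjamini-Hochberg adjusted p under 0.05 over all 11485 genes. Among all genes tested 33.3% rose and 17.6% fell, and the median difference was 0.20 for the list and 0.16 for all genes. With trimmed-mean scaling, which set the median of all genes to 0.00, 9 of the list rose and 4 fell, beside 2626 higher and 2902 lower genes among all tested (3823 and 2027 without it). PPARD, a fatty acid sensor, rose by 0.91 ± 0.07 (SE, limma adjusted p = 8.71e-05). It held 74.8 ± 1.5 TPM in the KDM2B shRNA-labelled libraries and 39.3 ± 2.08 TPM in scramble (SD, n = 3 each).

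PPARG, the fat cell receptor, was the 1 that fell. It held 107 ± 3.45 TPM in the KDM2B shRNA-labelled libraries and 216 ± 1.5 TPM in scramble (SD, n = 3 each), a difference of -0.999 ± 0.0532 (SE, limma adjusted p = 2.49e-05). NR1H2, the oxysterol receptor LXR beta, rose by 0.75 ± 0.08 and NR1D1, a clock repressor that binds haem, by 0.91 ± 0.13 (SE, limma adjusted p = 0.000273 and 0.000859). The partners of NR4A1 and NR4A2 did not pass. RXRA averaged 9.93 ± 1.21 TPM in the KDM2B shRNA-labelled libraries and 11.3 ± 2.02 TPM in scramble (SD, n = 3 each), with limma adjusted p = 0.461. RXRB averaged 5.81 ± 1.25 TPM in the KDM2B shRNA-labelled libraries and 7.49 ± 0.703 TPM in scramble (SD, n = 3 each), with limma adjusted p = 0.158.

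**Figure D3:**
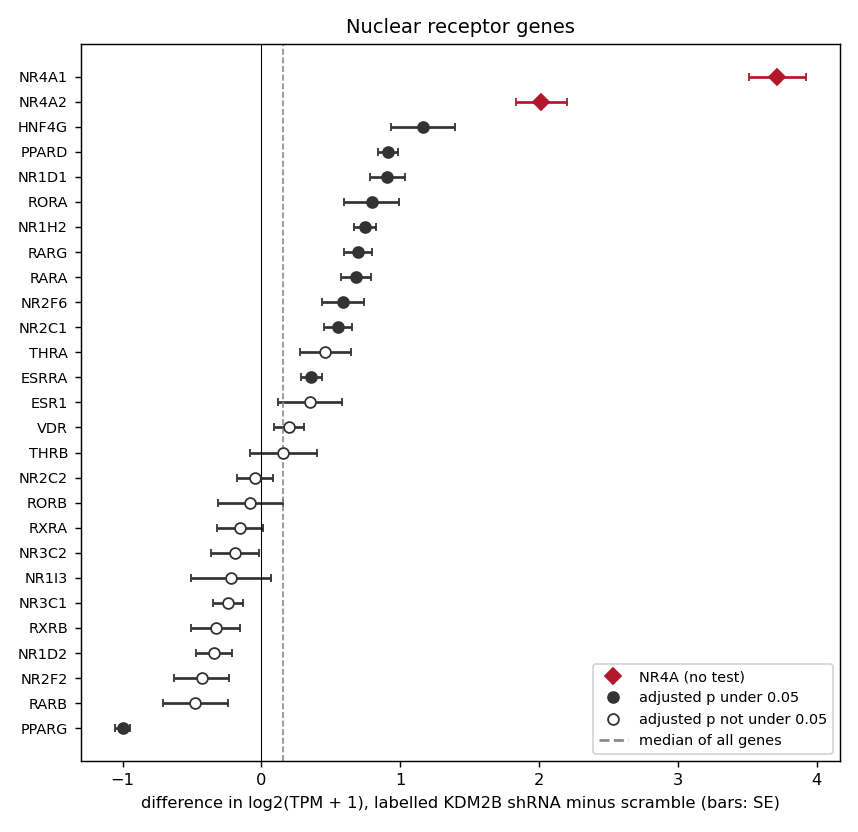
Each point is the difference in log2(TPM + 1) between the KDM2B shRNA-labelled libraries and scramble, with its SE, for NR4A1, NR4A2 and the 25 other nuclear receptor genes tested. The dashed line is the median of all genes, 0.16, and both NR4A genes (3.72 and 2.02) lie to the right of every other receptor shown, whose differences end at 1.17 for HNF4G.

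Between the JuB2 controls and the library labelled EC, PPARG, VDR, NR2C1 and RARB had the largest differences among receptors that averaged 5 TPM or more across libraries, all higher in the JuB2 controls. PPARG, for example, held 216.01, 217.13 and 214.16 TPM in scramble and 189.79 TPM in untreated JuB2, against 12.8 TPM in the library labelled EC. Its difference was 3.93 ± 0.05 (SE, limma adjusted p = 4.06e-07), opposite in sign to that of NR4A1. Of 25 receptors tested 12 were higher (48.0%) and 6 lower (24.0%) in the JuB2 controls, beside 42.3% and 20.0% of all genes.

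The signals that drive NR4A genes were examined next. cAMP acts through protein kinase A and the factor CREB. Of 22 tested genes of this route 8 rose (36.4%) and 3 fell (13.6%), beside 33.3% and 17.6% of all genes, and 6 rose and 4 fell with trimmed-mean scaling. The list median was 0.24. CREBBP, a coactivator of CREB, averaged 16.0 ± 1.66 TPM in the KDM2B shRNA-labelled libraries and 7.11 ± 0.214 TPM in scramble (SD, n = 3 each), and rose by 1.07 ± 0.13 (SE, limma adjusted p = 0.000405). PRKACA, a catalytic subunit of protein kinase A, rose by 0.71 ± 0.09 (SE, limma adjusted p = 0.000479).

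The regulatory subunits PRKAR2A and PRKAR2B, which hold the kinase inactive without cAMP, fell. Their differences were -0.80 ± 0.08 and -0.98 ± 0.07 (SE, limma adjusted p = 0.000182 and 6.76e-05). PRKAR2B averaged 46.9 ± 2.87 TPM in the KDM2B shRNA-labelled libraries and 93.2 ± 1.93 TPM in scramble (SD, n = 3 each). PRKAR1A, a more abundant regulatory subunit named after its value was seen, did not pass. It averaged 151 ± 2.85 TPM in the KDM2B shRNA-labelled libraries and 158 ± 5.36 TPM in scramble (SD, n = 3 each, limma adjusted p = 0.387). The third fall, named after its value was seen, was ADCY7, an adenylyl cyclase. CREB1 itself did not pass, at 20.8 ± 4.05 TPM in the KDM2B shRNA-labelled libraries and 18.2 ± 2.13 TPM in scramble (SD, n = 3 each, limma adjusted p = 0.395).

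Calcium reaches NR4A1 through the MEF2 factors. Of 18 tested genes of the calcium, MEF2 and NFAT list 5 rose (27.8%) and 2 fell (11.1%), beside 33.3% and 17.6% of all genes. The list median was 0.17, against 0.16 for all genes, and 3 rose and 3 fell with trimmed-mean scaling. MEF2D rose by 0.80 ± 0.16, NFATC3, a factor that calcineurin activates, by 0.88 ± 0.11 and CAMK2G, a calcium-dependent kinase, by 0.70 ± 0.16 (SE, limma adjusted p = 0.0051, 0.000596 and 0.00869). PPP3CB, a catalytic subunit of calcineurin, had a difference of -0.57 ± 0.14 (SE, limma adjusted p = 0.0112) and fell. With 18 genes, shares this near those of all genes are not read as a trait of the list.

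Kinases of the ERK, AKT and JNK routes can act on NR4A genes or proteins. Of 16 tested 3 rose (18.8%) and 4 fell (25%), beside 33.3% and 17.6% of all genes. The list median was -0.10, against 0.16 for all genes, and 3 rose and 8 fell with trimmed-mean scaling. MAPK7, the kinase ERK5 that activates MEF2 factors, had the largest rise of the list. It held 30.9 ± 2.18 TPM in the KDM2B shRNA-labelled libraries and 12.0 ± 0.312 TPM in scramble (SD, n = 3 each), a difference of 1.30 ± 0.10 (SE, limma adjusted p = 7.78e-05). MAP2K2, a kinase that activates ERK, rose by 0.54 ± 0.07 (SE, limma adjusted p = 0.000527). AKT1, a survival kinase, and RPS6KA2, a kinase downstream of ERK, fell, with differences of -0.62 ± 0.07 and -1.15 ± 0.14 (SE, limma adjusted p = 0.000367 and 0.000492).

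Of 16 receptors reported to induce NR4A genes in vascular cells, 12 had a row and 8 were tested, of which 3 rose (37.5%) and 1 fell (12.5%), beside 33.3% and 17.6% of all genes. With trimmed-mean scaling 2 rose and 1 fell. TNFRSF1A, a receptor of tumour necrosis factor, rose by 0.57 ± 0.11 and ADORA2A, an adenosine receptor that raises cAMP, fell by 1.22 ± 0.11 (SE, limma adjusted p = 0.0032 and 0.000124). EGFR, a growth factor receptor, rose by 0.25 ± 0.09 (SE, limma adjusted p = 0.0461), but it did not pass under 12 of the 16 alternatives, where the adjusted p reached 0.467. PTGER4, a prostaglandin receptor, did not pass (0.21 ± 0.13, SE, limma adjusted p = 0.225). The third rise, chosen after its value was seen, was KDR, the main receptor of vascular endothelial growth factor.

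Among protein partners and cofactors of the NR4A receptors 5 of 18 tested genes rose (27.8%) and 0 fell, beside 33.3% and 17.6% of all genes, with a median of 0.10, against 0.16 for all genes. With trimmed-mean scaling 5 rose and 3 fell. RELA, the NF-kB subunit that NR4A1 and NR4A2 can hold in check, averaged 69.1 ± 1.48 TPM in the KDM2B shRNA-labelled libraries and 38.9 ± 0.911 TPM in scramble (SD, n = 3 each). It rose by 0.81 ± 0.07 (SE, limma adjusted p = 0.000103). PARP1 and XRCC6, which act at DNA breaks, rose by 0.54 ± 0.08 and 0.46 ± 0.08 (SE, limma adjusted p = 0.000949 and 0.00231). Another that rose, chosen after its value was seen, was the coactivator NCOA1. PRKDC, the DNA-dependent kinase that works with XRCC6, did not pass (0.03 ± 0.18, SE, limma adjusted p = 0.89).

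Genes reported as NR4A targets in other cells of human, mouse or rat were sought as 35 symbols, of which 31 had a row and 14 were tested. Of these 7 rose (50.0%) and 2 fell (14.3%), beside 33.3% and 17.6% of all genes, and 6 rose and 4 fell with trimmed-mean scaling. The list median was 0.48. ICAM1, an adhesion molecule, held 84.0 ± 3.30 TPM in the KDM2B shRNA-labelled libraries and 51.2 ± 3.996 TPM in scramble (SD, n = 3 each) and rose by 0.70 ± 0.08 (SE, limma adjusted p = 0.000345). NFKBIA, the inhibitor of NF-kB, rose by 1.05 ± 0.17 and PFKM, a muscle glycolytic enzyme, by 0.51 ± 0.08 (SE, limma adjusted p = 0.00151 and 0.00162).

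UCP2, a mitochondrial carrier named after its value was seen, was among the falls. VCAM1, an adhesion molecule that NR4A3 is reported to raise, was listed at 0 in all 7 JuB2 libraries and at 36.45 TPM in the library labelled EC. In the comparison of the JuB2 controls with the library labelled EC, 14 targets were tested, with VCAM1 among them and CD36 not, the reverse of the shRNA comparison. Of these 6 were higher and 6 lower (42.9% each), beside 42.3% and 20.0% of all genes (4981 and 2353, or 3801 and 3401 with trimmed-mean scaling).

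**Figure D4:**
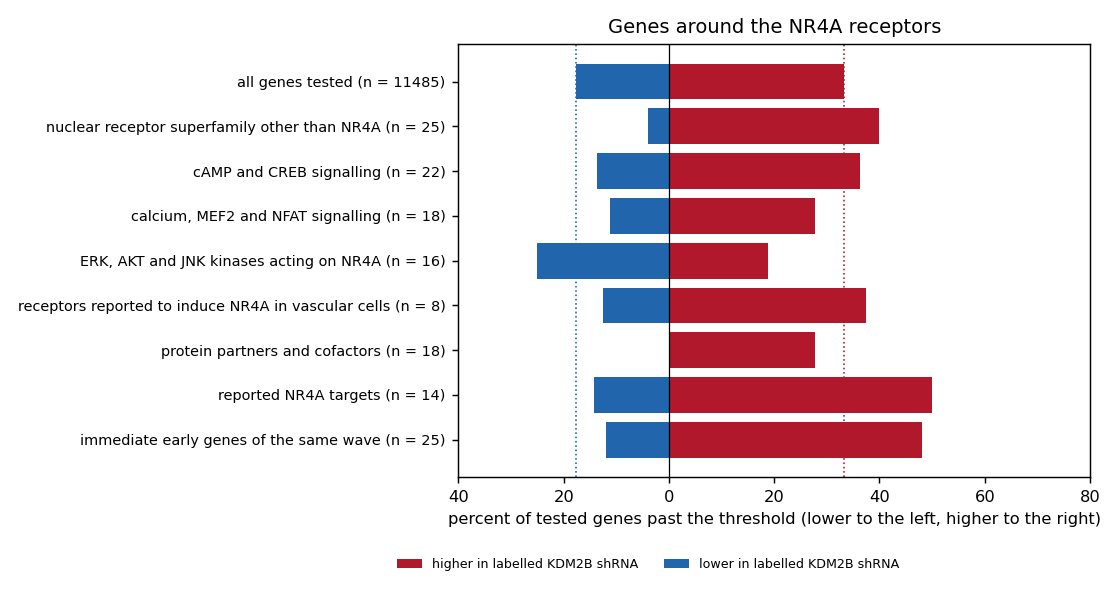
Bars give the percent of tested genes of each list with limma adjusted p under 0.05, higher (right) or lower (left) in the KDM2B shRNA-labelled libraries relative to scramble, with all 11485 genes on top and dotted lines at their shares. The targets (50.0%) and immediate early genes (48.0%) reach furthest to the right, and the kinase list (25%) furthest to the left.

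Immediate early genes, induced in the same wave as NR4A1, were the list nearest in kind. Of 25 tested 12 rose (48.0%) and 3 fell (12.0%), beside 33.3% and 17.6% of all genes. The list median was 0.37, against 0.16 for all genes, and 11 rose and 5 fell with trimmed-mean scaling. PER1, a clock gene that CREB induces, averaged 46.9 ± 2.53 TPM in the KDM2B shRNA-labelled libraries and 15.1 ± 0.832 TPM in scramble (SD, n = 3 each). It rose by 1.57 ± 0.09, FOSL1, an AP-1 subunit, by 1.52 ± 0.12 and IER2 by 1.09 ± 0.09 (SE, limma adjusted p = 3.01e-05, 8.98e-05 and 9.3e-05). MYC, a growth-promoting factor, fell by 1.02 ± 0.08 (SE, limma adjusted p = 8.08e-05). The other falls, named after their values were seen, were KLF4, a zinc finger factor, and ATF3, a stress-induced factor.

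FOS and FOSB, named for the rule on shape above, were higher in the KDM2B shRNA-labelled libraries by 1.82 ± 0.21 and 1.52 ± 0.21 (SE). That rule asked for levels above scramble, so the direction was set by the choice and no test is given. FOS held 19.83, 26.31 and 15.06 TPM in the KDM2B shRNA-labelled libraries, against 5.02, 4.18 and 5.63 TPM in scramble, and 431.5 TPM in the library labelled EC. Its level in the KDM2B shRNA-labelled libraries was far below that in the library labelled EC, unlike the levels of the NR4A genes. Between the JuB2 controls and the library labelled EC, 4 of the 25 immediate early genes were higher and 16 lower (64.0%, against 20.0% of all genes), with a median of -1.07, against 0.37 for all genes. Between scramble and untreated JuB2 1 of the 25 passed, JUN, which was lower in scramble, as were 0.739% of all genes. The calls of that fit drop to 10 to 82 when a library is left out.

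**Figure D5:**
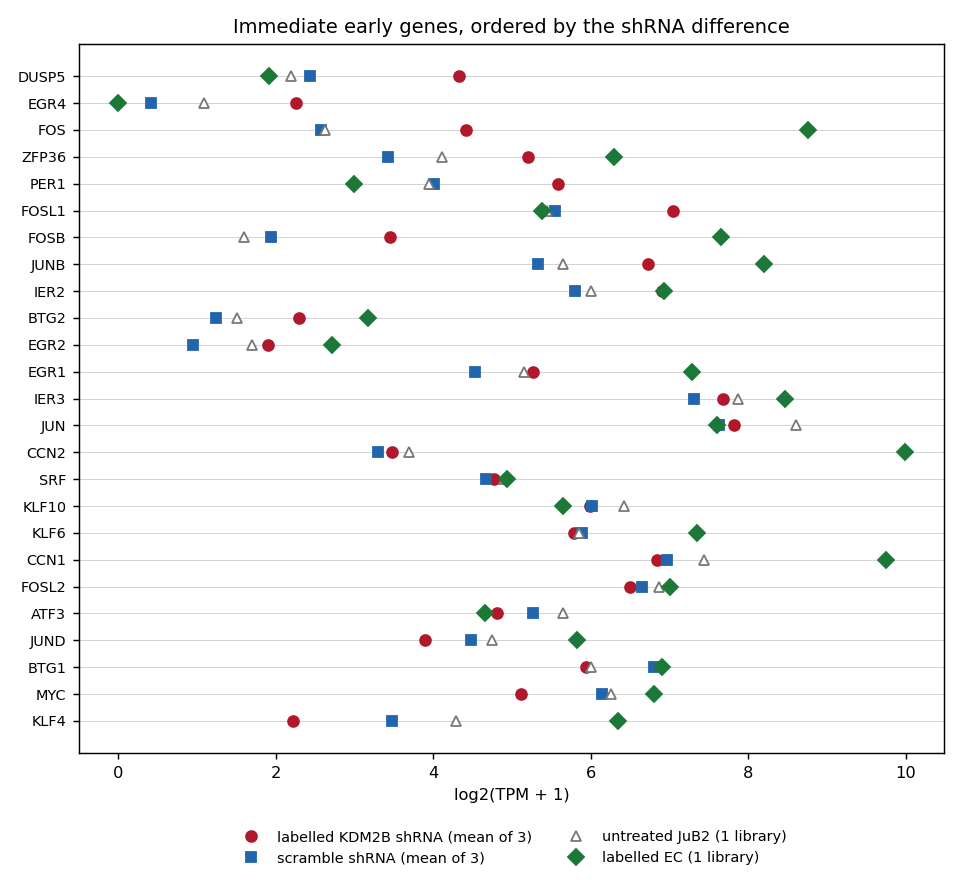
Points give log2(TPM + 1) of 25 immediate early genes, from the mean TPM of 3 KDM2B shRNA-labelled libraries, the mean of 3 scramble libraries, and the single untreated JuB2 and EC libraries, with genes ordered by the shRNA difference. FOS, FOSB and JUNB lie higher in the KDM2B shRNA-labelled libraries than in scramble and higher still in the library labelled EC, while KLF4 lies lowest in the KDM2B shRNA-labelled libraries.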

How the data were processed

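The deposited table gives TPM per gene and library, computed by the authors. The tools STAR and RSEM and the dog build CanFam3.1 were used per the submitters' processing notes, whose entries state neither role nor version. Sources used here give no depth, strandedness or filter.

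KDM2B shRNA-labelled and scramble libraries (3 each) were compared by limma 3.58.1 (R 4.3.3, intensity trend) on log2(TPM + 1), over the 11485 genes that reached 1 TPM in 3 or more of these 6. Single libraries were compared in a limma fit of all 8, over 11774 genes with a mean of at least 1 TPM. P-values were adjusted by Benjamini-Hochberg at 0.05. A log2(TPM + 1) difference understates the fold of low genes. Figures used matplotlib 3.10.9.

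The members and lists were chosen with earlier results of these data known. Named genes were KDM2B, the members, up to 4 genes per list with the smallest p and a mean of at least 5 TPM, the 4 nuclear receptors of the same minimum mean with the largest difference between JuB2 controls and the library labelled EC, and the 5 genes nearest to each member. Others are stated to be chosen later or are named as background, and 2 genes that the rule names are not reported here. RXRA, RXRB and RXRG stand on 2 lists. Alternatives were other scalings, filters, pseudocounts (0.1 and 5), no intensity trend, other sets of libraries, a replicate block and leaving out each replicate. Same-numbered libraries were not paired by any label.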

Additional observations from a re-analysis of the deposited data

How the results depend on the processing

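Depth limits are unknown, since TPM keeps no counts. In the shRNA comparison NR4A1 and NR4A2 stayed higher under all 16 alternatives. Their differences were 3.03 and 1.27 with a pseudocount of 5, and 2.36 for NR4A2 with 0.1, which follows from the scale. Leaving out a replicate gave 3.47 to 3.84 and 1.87 to 2.09. Both stayed lower in the JuB2 controls than in the library labelled EC under all 15 alternatives, with limma adjusted p from 4.21e-05 to 0.00168 and from 0.000667 to 0.00495. Between scramble and untreated JuB2 neither passed under any of 15 alternatives. There NR4A1 was 0.22 to 0.59 and NR4A2 -0.16 to 0.06 when a replicate was left out, the sign of NR4A2 turning, to 0.0596, without scramble replicate 2. The count of genes called there, 207, was 410 with no filter, 23 without the intensity trend, 23 in a fit of 4 libraries chosen after seeing the data, and 10 to 82 without a replicate. With trimmed-mean scaling 11 genes of the kinase list passed (7 otherwise) and 8 of the partner list (5 otherwise); the median gene stood at 0.00 rather than 0.16. That scaling gave 2626 higher and 2902 lower genes in the shRNA comparison, against 3823 and 2027, and 3801 higher and 3401 lower genes in the JuB2 controls than in the library labelled EC, against 4981 and 2353. The replicate block moved the 5850 calls to 5448; correlations of same-numbered libraries were 0.03, 0.01 and -0.05, so the numbers are not treated as pairs. Of 33 named genes 1, EGFR, lost its call. A fit of 6 libraries was not run for the single libraries, which it does not hold, and promoter motifs were not examined here.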

Other observations

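The protein-coding genes next to the receptors in the gene order of the dog assembly UU_Cfam_GSD_1.0, which is not the build of the data, were looked up after the values were seen. ATG101, an autophagy gene beside NR4A1, held 58.29, 53.48 and 57.46 TPM in the KDM2B shRNA-labelled libraries, against 57.12, 58.11 and 58.76 TPM in scramble, a difference of -0.04 ± 0.07 in log2(TPM + 1) (SE, limma adjusted p = 0.66). ACVR1B, an activin receptor gene on the other side of NR4A1 with a gene between them, held 21.36, 19.95 and 15.37 TPM in the KDM2B shRNA-labelled libraries, against 9.46, 6.18 and 8.76 TPM in scramble, and rose by 1.13 ± 0.19 (SE, limma adjusted p = 0.00196). GPD2, a mitochondrial glycerol phosphate dehydrogenase gene beside NR4A2, held 36.49, 37.71 and 36.17 TPM in the KDM2B shRNA-labelled libraries, against 22.25, 18.19 and 22.51 TPM in scramble, and rose by 0.79 ± 0.11 (SE, limma adjusted p = 0.000721). The other neighbours looked up had no row, as on the other side of NR4A2, or were too low to test, as was GALNT5. For both receptors the difference to scramble was larger than that of these neighbours with a test. This was not tested, and the receptors were chosen with their difference known.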
